A study of Mus musculus with 4 samples.

Results

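The genes described here are 33 interferon-stimulated genes, taken from a list of symbols, all of which were found among 31053 features. They were kept in a type I-led group of 24 (Isg15, Ifit1, Ifit2, Ifit3, Ifit3b, Irf7, Irf9, Stat2, Oasl1, Oasl2, Oas3, Rsad2, Mx1, Ifi44, Usp18, Bst2, Ifi27l2a, Ifitm3, Zbp1, Cmpk2, Rtp4, Xaf1, Ifih1 and Trim30a) and an interferon gamma-led group of 9 (Irf1, Gbp2, Gbp3, Gbp5, Gbp7, Ifi47, Igtp, Irgm1 and Iigp1). Within the first group, 13 genes were also summed as a core: Isg15, Ifit1, Ifit2, Ifit3, Ifit3b, Oasl1, Oasl2, Oas3, Rsad2, Mx1, Ifi44, Usp18 and Cmpk2.

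The study compared mice lacking Rab37, a small GTPase of vesicle secretion, with wild-type mice, both C57BL/6, at day 14. Live CD45-positive cells were sorted from tissue and profiled by droplet single-cell RNA sequencing, in which each captured transcript is counted once as a unique molecular identifier (UMI). The 4 libraries were lung tumor of Rab37 knockout (KO) mice, lung tumor of wild-type (WT) mice, normal lung of Rab37 KO mice and normal lung of WT mice. The tumor mice had been given LLC lung cancer cells and, per the series' design text, the other mice had been given Matrigel. How the Rab37 deletion was made, the age of the mice and the number of mice behind a library are not given in the sources used here.

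There was 1 library per group, so no difference below has a replicate check and none was tested. Intervals are exact 95% intervals that cover counting error only. Levels are UMIs summed over the cells of a class and given per 1000000 UMIs of that class (CPM), with at least 10 UMIs over both libraries needed for a ratio, and a gene is called higher or lower at 1.5-fold.

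Interferons signal through paired receptors to JAK kinases and STAT proteins. Type I interferons chiefly act through a complex that holds STAT2 and IRF9 and binds the interferon-stimulated response element (ISRE), whereas interferon gamma chiefly acts at the gamma-activated site (GAS) and further through IRF1. The type I-led products block viral RNA and protein at many steps, and the gamma-led GTPases attack vacuoles that hold microbes. In tumors the same genes are read as a trace of interferon reaching immune cells.

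Promoters of 8 members are shown because the results below turn on these genes and because they differ in which element they carry. Each window runs from 250 bases before to 50 bases after the gene's start, 5′ to 3′ on the gene's strand, from RefSeq on GRCm38.p6. Capitals mark matches to the ISRE letters, GAAA then 2 bases of any kind then GAAA, read on either strand (TTTC then 2 bases then TTTC on the other), or to the GAS letters TTCNNNGAA, which read alike on both strands.
Isg15: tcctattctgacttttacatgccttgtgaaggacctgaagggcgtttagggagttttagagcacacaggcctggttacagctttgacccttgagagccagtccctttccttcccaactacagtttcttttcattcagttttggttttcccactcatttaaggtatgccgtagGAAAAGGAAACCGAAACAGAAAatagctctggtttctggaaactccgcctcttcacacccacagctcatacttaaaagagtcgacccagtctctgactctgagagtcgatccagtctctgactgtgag
Ifit1: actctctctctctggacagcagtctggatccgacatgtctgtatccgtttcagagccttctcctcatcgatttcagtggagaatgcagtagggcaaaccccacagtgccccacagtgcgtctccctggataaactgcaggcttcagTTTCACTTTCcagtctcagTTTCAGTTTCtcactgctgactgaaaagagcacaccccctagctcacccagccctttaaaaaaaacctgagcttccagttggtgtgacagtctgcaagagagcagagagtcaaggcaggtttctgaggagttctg
Ifit3: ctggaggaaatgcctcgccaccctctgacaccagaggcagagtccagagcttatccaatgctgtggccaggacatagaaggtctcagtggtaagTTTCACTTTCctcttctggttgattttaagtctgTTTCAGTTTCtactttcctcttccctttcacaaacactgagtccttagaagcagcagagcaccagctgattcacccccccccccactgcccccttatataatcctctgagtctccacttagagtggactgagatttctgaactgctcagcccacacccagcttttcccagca
Ifit3b: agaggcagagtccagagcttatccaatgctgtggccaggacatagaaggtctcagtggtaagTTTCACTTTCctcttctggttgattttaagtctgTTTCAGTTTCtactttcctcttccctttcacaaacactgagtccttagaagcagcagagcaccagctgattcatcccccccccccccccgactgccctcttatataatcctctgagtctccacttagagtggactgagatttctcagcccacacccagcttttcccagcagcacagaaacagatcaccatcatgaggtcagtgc
Rsad2: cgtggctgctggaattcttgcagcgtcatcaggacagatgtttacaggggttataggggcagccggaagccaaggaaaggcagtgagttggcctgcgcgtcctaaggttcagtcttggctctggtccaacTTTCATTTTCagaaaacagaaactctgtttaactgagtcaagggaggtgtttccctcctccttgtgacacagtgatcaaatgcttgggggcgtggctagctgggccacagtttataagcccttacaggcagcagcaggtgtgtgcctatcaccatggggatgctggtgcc
Gbp2: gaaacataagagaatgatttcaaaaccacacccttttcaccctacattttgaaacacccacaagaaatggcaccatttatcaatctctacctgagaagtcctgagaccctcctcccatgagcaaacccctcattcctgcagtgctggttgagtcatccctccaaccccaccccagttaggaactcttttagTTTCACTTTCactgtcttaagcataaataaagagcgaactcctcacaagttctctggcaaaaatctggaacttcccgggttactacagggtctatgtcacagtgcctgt
Igtp: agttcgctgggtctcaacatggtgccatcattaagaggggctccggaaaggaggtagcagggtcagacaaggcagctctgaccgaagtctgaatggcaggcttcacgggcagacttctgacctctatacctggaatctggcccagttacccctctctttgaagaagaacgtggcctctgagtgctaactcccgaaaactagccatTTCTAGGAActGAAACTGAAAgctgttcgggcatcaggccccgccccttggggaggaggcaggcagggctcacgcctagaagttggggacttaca
Irf1: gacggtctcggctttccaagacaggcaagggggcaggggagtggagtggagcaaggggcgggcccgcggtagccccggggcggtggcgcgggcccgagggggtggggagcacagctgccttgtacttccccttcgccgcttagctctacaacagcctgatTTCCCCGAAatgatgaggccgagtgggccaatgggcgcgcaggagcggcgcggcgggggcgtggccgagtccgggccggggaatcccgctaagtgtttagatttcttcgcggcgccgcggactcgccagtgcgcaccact

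The Isg15 window (chr4:156200769-156201068, minus strand) holds 3 ISRE matches that overlap each other, with first bases between -78 and -66 from the start. The Ifit1 window (chr19:34640639-34640938, plus strand) has matches at -104 and -85. The windows of Ifit3 (chr19:34583279-34583578, plus strand) and Ifit3b (chr19:34607707-34608006, plus strand) hold a pair each, at -156 and -122 in Ifit3 and at -188 and -154 in Ifit3b. Rsad2 (chr12:26456403-26456702, minus strand) has 1 at -120 and Gbp2 (chr3:142620413-142620712, plus strand) 1 at -59. Igtp (chr11:58199306-58199605, plus strand) holds an ISRE match at -34 and a GAS match at -45, which do not overlap. Irf1 (chr11:53769764-53770063, plus strand) holds only a GAS match, at -90. A promoter was found for 27 members. The ISRE letters were present in 17 of these 27 (63.0%), namely 11 of 19 type I-led and 6 of 8 gamma-led members, against 3.99% of 27025 genes. The GAS letters were present in 7 of 27 members (25.9%), namely 3 of 19 type I-led and 4 of 8 gamma-led members, against 9.55% of genes. Such a match describes letters and is not a measured site. Mx1, Usp18, Iigp1, Ifi27l2a, Zbp1 and Rtp4 had no window in the table used.

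After filtering, 2725 tumor Rab37 KO, 644 tumor WT, 4646 normal Rab37 KO and 5063 normal WT cells remained, with median depths of 6556, 3979, 5486 and 5053 UMIs. Rab37 itself had 8, 24, 13 and 292 UMIs in that order. Among tumor cells whose sex could be called, 1662 of the Rab37 KO library held Y-linked UMIs without Xist and 33 held Xist alone, whereas the WT library had 0 and 417, so sex and genotype cannot be told apart in tumors. The normal libraries held cells of both sexes. The libraries shared 15 cell barcodes over their 6 pairings. Cells were named from marker genes with the 33 members kept out of the clustering. Neutrophil-like cells numbered 1305, 208, 559 and 382, monocyte/macrophage-like cells 296, 185, 484 and 556, dendritic cell-like cells 58, 29, 168 and 219, and T-like cells 90, 60, 1541 and 1691, in the order above.

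Neutrophil-like cells had the highest level of the type I-led core among the 7 classes of immune cells compared. Summed over 13 genes, the core stood at 301.5 CPM in tumor Rab37 KO, 836 CPM in tumor WT, 497 CPM in normal Rab37 KO and 443 CPM in normal WT neutrophil-like cells. In monocyte/macrophage-like cells it stood at 219, 153, 176 and 167 CPM. T-like cells had 77.7, 108, 41.2 and 42.0 CPM, and alveolar macrophage-like cells had 10.9, 29.6, 6.45 and 6.89 CPM. The core was therefore lowest in the resident macrophages of the airspace, among these 4 classes, in every library. Among classes with at least 20 cells, Isg15, Ifit3b, Oas3, Oasl2, Rsad2 and Rtp4 were highest in neutrophil-like cells in all 4 libraries. For each of them the interval overlapped that of the next class in some library. In tumor Rab37 KO, for example, Rsad2 had 54.8 CPM there and 51.7 CPM in monocyte/macrophage-like cells.

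The gamma-led group had another distribution. Its 9 genes summed to 197, 306, 115 and 96.6 CPM in neutrophil-like cells of tumor Rab37 KO, tumor WT, normal Rab37 KO and normal WT. In T-like cells the sums were 389, 499, 338 and 333 CPM, and in NK-like cells 388, 332, 305 and 299.8 CPM. T-like and NK-like cells thus stood above neutrophil-like cells in each library and in tumor WT the NK-like sum, from 26 cells, was close to the neutrophil-like one. Igtp, an immunity-related GTPase, was highest in T-like cells in all 4 libraries.

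**Figure D1:**
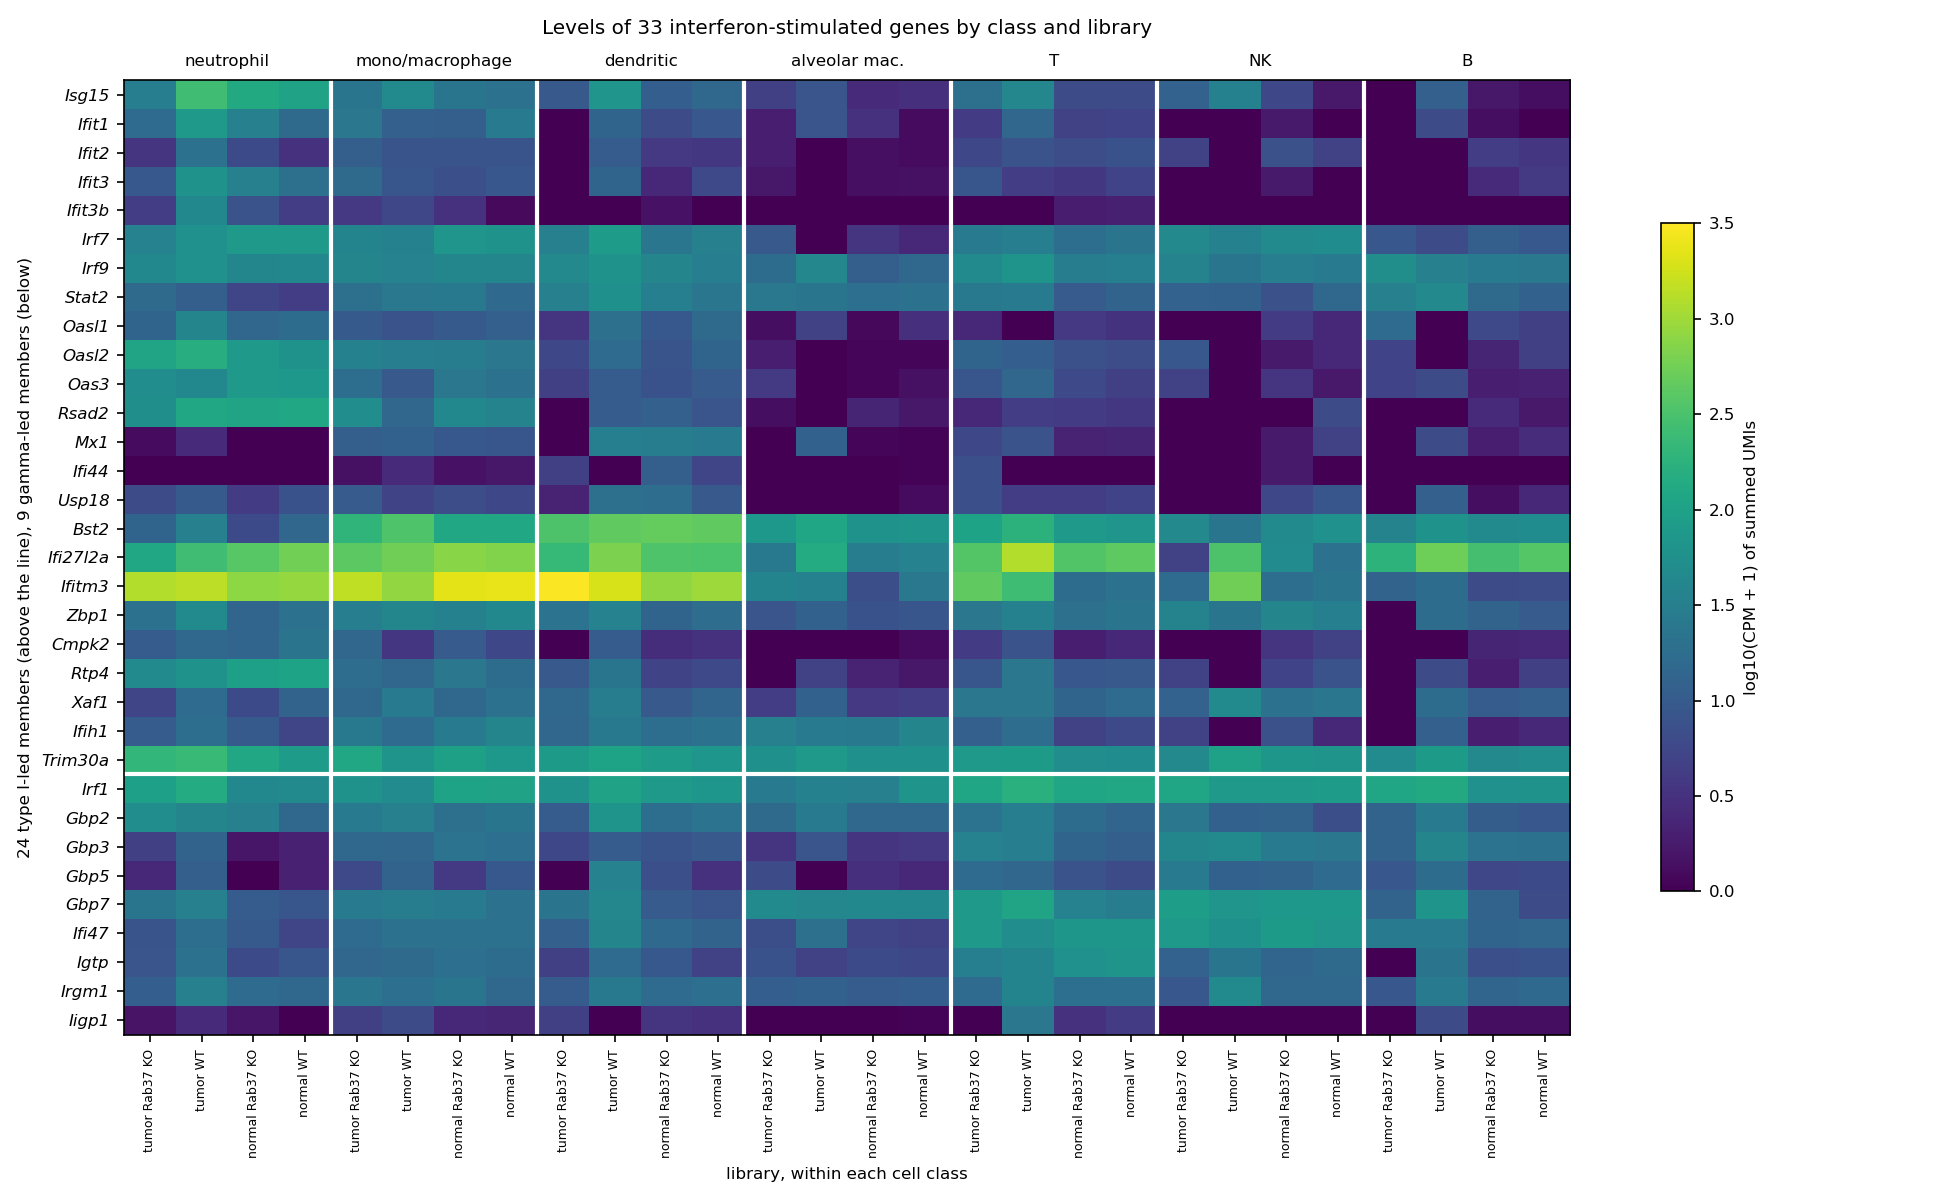
Levels of the 33 members as log10(CPM + 1) of summed UMIs, with 1 column per library within each of 7 cell classes and rows split by a white line into 24 type I-led and 9 gamma-led members. Isg15, Oasl2 and Rsad2 are brightest in the neutrophil columns, Bst2 in the dendritic columns and Igtp in the T columns.

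Single members showed where each signal sat in the tumor WT library. Isg15, a ubiquitin-like protein, reached 263 CPM in neutrophil-like cells and 66.0 CPM in dendritic cell-like cells, the next class, and the intervals did not overlap. Rsad2 (viperin), an antiviral enzyme, had 119 CPM in neutrophil-like cells and 13.1 CPM in monocyte/macrophage-like cells, the next class. Ifi27l2a, a small interferon-induced protein of the Ifi27 family, was instead highest in T-like cells, at 1235 CPM, with 641 CPM in dendritic cell-like cells. The surface restriction factors had another arrangement. Ifitm3, which blocks virus entry, reached 1945 CPM in dendritic cell-like, 1409 CPM in neutrophil-like and 16.1 CPM in B-like cells. Bst2 (tetherin), which holds virions at the membrane, had 437 CPM in dendritic cell-like and 345 CPM in monocyte/macrophage-like cells, whose intervals overlapped. Ifi44 had 0 UMIs in neutrophil-like cells of all 4 libraries, which allows up to 0.501, 6.38, 2.33 and 4.05 CPM in tumor Rab37 KO, tumor WT, normal Rab37 KO and normal WT. The GTPase gene Mx1 was also low there, with 2, 1, 0 and 0 UMIs, while dendritic cell-like cells had 0, 10, 61 and 61.

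In the tumors, type I-led members were lower in Rab37 KO than in WT neutrophil-like cells. Of 22 measured, 0 were higher and 14 lower, while 13.7% of all genes measured were higher and 22.2% lower. The members had a median log2 ratio of -1.0, and all genes one of -0.09. Of 8 gamma-led members measured, 0 were higher and 6 lower, with a median of -1.31. Beside the members with the lowest ratios, the log2 ratio is also given with classes taken from each cell's own markers, a choice that changed several of them.

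Isg15 had 30.6 CPM in tumor Rab37 KO and 263 CPM in tumor WT neutrophil-like cells, a ratio of 0.116 (0.0942 to 0.144), or -3.10 as a log2 ratio and -2.53 by own markers. Normal lung neutrophil-like cells lay between these, at 131 CPM in Rab37 KO and 104 CPM in WT. The tumor pair therefore straddled the normal pair. Ifit1, which binds viral RNA caps, had 15.8 CPM in tumor Rab37 KO and 76.2 CPM in tumor WT, a ratio of 0.207 (0.145 to 0.30), and 32.2 CPM in normal Rab37 KO and 15.4 CPM in normal WT. By own markers the Ifit1 tumor ratio turned round, to 0.23 as a log2 ratio. Ifit3, another member of the family, had 8.15 CPM in tumor Rab37 KO and 62.3 CPM in tumor WT, a ratio of 0.131 (0.0852 to 0.204), against 32.9 CPM in normal Rab37 KO and 18.7 CPM in normal WT, and its log2 ratio in tumor was -1.39 by own markers. Ifit3b is a near-identical copy of Ifit3, so how the authors' counting split reads between them is uncertain. It had 3.26 CPM in tumor Rab37 KO and 41.5 CPM in tumor WT, a ratio of 0.0785 (0.0427 to 0.144), and 6.95 CPM in normal Rab37 KO and 3.29 CPM in normal WT. Its tumor ratio also turned round by own markers, to 0.42 as a log2 ratio. Ifit2 had 2.45 and 19.0 CPM in the same tumor order, with 5.06 CPM in normal Rab37 KO and 2.20 CPM in normal WT.

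Members of the other antiviral families had ratios nearer to 1. Oasl1, an oligoadenylate synthetase-like protein, had 12.5 CPM in tumor Rab37 KO and 38.1 CPM in tumor WT neutrophil-like cells, a ratio of 0.328 (0.204 to 0.549), with a log2 ratio of -0.72 by own markers. Rsad2 had 54.8 CPM in tumor Rab37 KO and 119 CPM in tumor WT, against 109 CPM in normal Rab37 KO and 119.7 CPM in normal WT. Tumor Rab37 KO thus stood below the other 3 libraries for Rsad2. Oasl2 had 108 CPM in tumor Rab37 KO and 151 CPM in tumor WT, a ratio of 0.719 that did not reach 1.5-fold. Oas3, an oligoadenylate synthetase that activates RNase L, had 50.4 CPM in tumor Rab37 KO and 41.5 CPM in tumor WT, with an interval that held 1. Trim30a, whose family copies are alike enough to make its counts uncertain, had 207 CPM in tumor Rab37 KO and 225 CPM in tumor WT. Ifitm3 had 1259 CPM in tumor Rab37 KO and 1409 CPM in tumor WT. The lower ratios were therefore uneven within the group.

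Several sensors and regulators were also lower. Zbp1, a sensor of nucleic acid in the Z form, had 19.4 CPM in tumor Rab37 KO and 46.7 CPM in tumor WT neutrophil-like cells. Irf7, which amplifies type I interferon production, had 34.7 CPM in tumor Rab37 KO and 58.9 CPM in tumor WT, with 73.9 CPM in normal Rab37 KO and 75.8 CPM in normal WT. Irf9 had 41.7 and 58.9 CPM in the tumor libraries, and its interval held 1. Among gamma-led members, Irf1, a transcription factor that interferon gamma induces, had 93.1 CPM in tumor Rab37 KO and 142 CPM in tumor WT, a ratio of 0.656 (0.521 to 0.835). Irgm1, a GTPase that controls autophagy of microbes, had 10.1 CPM in tumor Rab37 KO and 32.9 CPM in tumor WT, a ratio of 0.306 (0.183 to 0.536). By own markers the log2 ratios of Irf1 and Irgm1 were -0.69 and -1.53. Gbp2, a guanylate-binding GTPase of a family of close copies, had 51.7 CPM in tumor Rab37 KO and 38.1 CPM in tumor WT, and its interval held 1.

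The remaining members had lower ratios, were low in neutrophil-like cells or lay within the counting error. Below 1 with intervals that left out 1 were Ifi27l2a, Bst2, Xaf1, Gbp3, Gbp5, Ifi47 and Igtp. Of these, Igtp had 55 UMIs in tumor Rab37 KO and 11 in tumor WT. The intervals of Usp18, which removes Isg15 from proteins, Cmpk2, a nucleotide kinase, Rtp4, Gbp7 and Stat2 held 1, and so did that of Ifih1, a sensor of double-stranded RNA. Iigp1, Mx1 and Ifi44 had too few UMIs for a ratio.

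**Figure D2:**
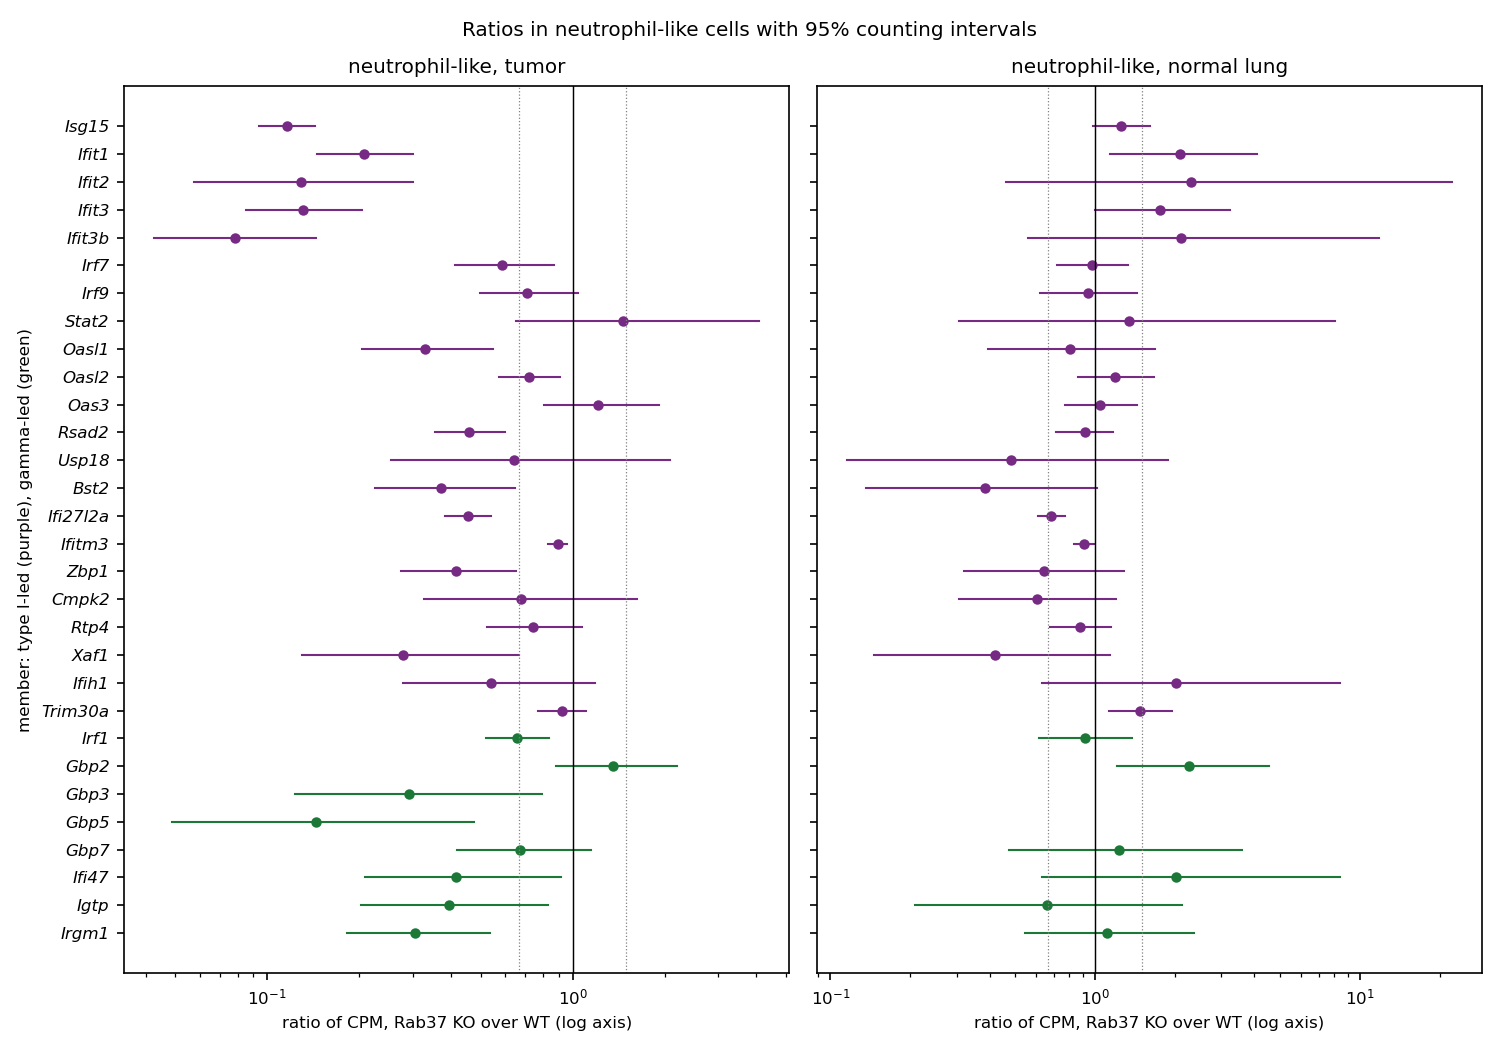
Ratios of CPM, Rab37 KO over WT, in neutrophil-like cells of tumor (left) and normal lung (right), as points with 95% counting intervals on a log axis; purple marks type I-led and green gamma-led members, and dotted lines mark 1.5-fold. Isg15 lies at 0.116 in tumor and 1.25 in normal lung, and Ifit1 at 0.207 and 2.10.

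A few cells carried much of this difference. When neutrophil-like cells were ranked by the core's share of their UMIs, the top 5% were 65 cells in tumor Rab37 KO, 10 in tumor WT, 28 in normal Rab37 KO and 19 in normal WT. They held 31.8%, 59.8%, 51.7% and 43.9% of the core UMIs. The 10 tumor WT cells averaged 14620 CPM of core, whereas the other 198 had 348 CPM. Without the top 5%, the core stood at 214 CPM in tumor Rab37 KO, 348 CPM in tumor WT, 253 CPM in normal Rab37 KO and 262 CPM in normal WT. Tumor WT stayed highest and tumor Rab37 KO lowest, with a smaller gap. The median log2 ratio of the type I-led members was then -0.27, with 2 higher and 7 lower of 20. The gamma-led median was -0.50.

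The label that these cells took from their own markers also differed between libraries. Of the 10 in tumor WT, 4 took the neutrophil label from their own markers, against 59 of 65 in tumor Rab37 KO, 28 of 28 in normal Rab37 KO and 19 of 19 in normal WT. Neutrophil marker genes took a median 4.60% of their UMIs, against 11.2% in the other tumor WT cells. When only cells with their own neutrophil label were kept, the core stood at 299 CPM over 1210 tumor Rab37 KO cells, 479 CPM over 165 tumor WT cells, 511 CPM over 545 normal Rab37 KO cells and 449 CPM over 362 normal WT cells. Tumor WT then lay between the normal libraries, and tumor Rab37 KO was lower than these 3. With classes taken from each cell's own markers instead, whatever its cluster, the median log2 ratio of type I-led members was -0.20. The part of RNA from other cells in the result was not tested.

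Isg15 had a UMI in 132 of 1305 tumor Rab37 KO cells (10.1%), 46 of 208 tumor WT cells (22.1%), 101 of 559 normal Rab37 KO cells (18.1%) and 62 of 382 normal WT cells (16.2%). In B-like cells, a class with few Isg15 UMIs, the counts were 0 of 65 (which allows a share of up to 5.52%), 2 of 55, 2 of 648 and 1 of 688, at median depths of 3181, 2811, 3880 and 3352 UMIs, against 3484, 2144, 2611 and 2242 UMIs in neutrophil-like cells. The share in tumor Rab37 KO neutrophil-like cells was the lowest of the 4 although their depth was the highest. Without the single richest cell of each library, Isg15 had 28.7, 233, 124 and 98.1 CPM. The 44 Ifit1 UMIs of tumor WT came from 9 cells and the 24 Ifit3b UMIs from 5, with 14 in 1 cell.

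At equal depth the intervals of the tumor libraries were narrowly apart for cells with at least 3 core UMIs and overlapped for cells with at least 1. These intervals take each cell as a separate draw within 1 library. The shares are not given for cells with their own neutrophil label alone. After each neutrophil-like cell was thinned to 1500 UMIs, at least 3 core UMIs remained in 47 of 1259 tumor Rab37 KO cells (3.73%, 2.76% to 4.93%), 15 of 165 tumor WT cells (9.09%, 5.18% to 14.6%), 36 of 533 normal Rab37 KO cells (6.75%, 4.78% to 9.23%) and 26 of 358 normal WT cells (7.26%, 4.80% to 10.5%). Shallower cells left out numbered 46, 43, 26 and 24. At least 1 core UMI remained in 26.8% of tumor Rab37 KO cells (24.3% to 29.3%), 29.7% of tumor WT cells (22.9% to 37.3%), 28.9% of normal Rab37 KO cells and 31.0% of normal WT cells. Unthinned, the shares with at least 3 were 18.2%, 16.8%, 13.8% and 11.5%. At least 3 gamma-led UMIs remained in 1.19%, 4.85%, 0.938% and 0.559% of thinned cells.

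**Figure D3:**
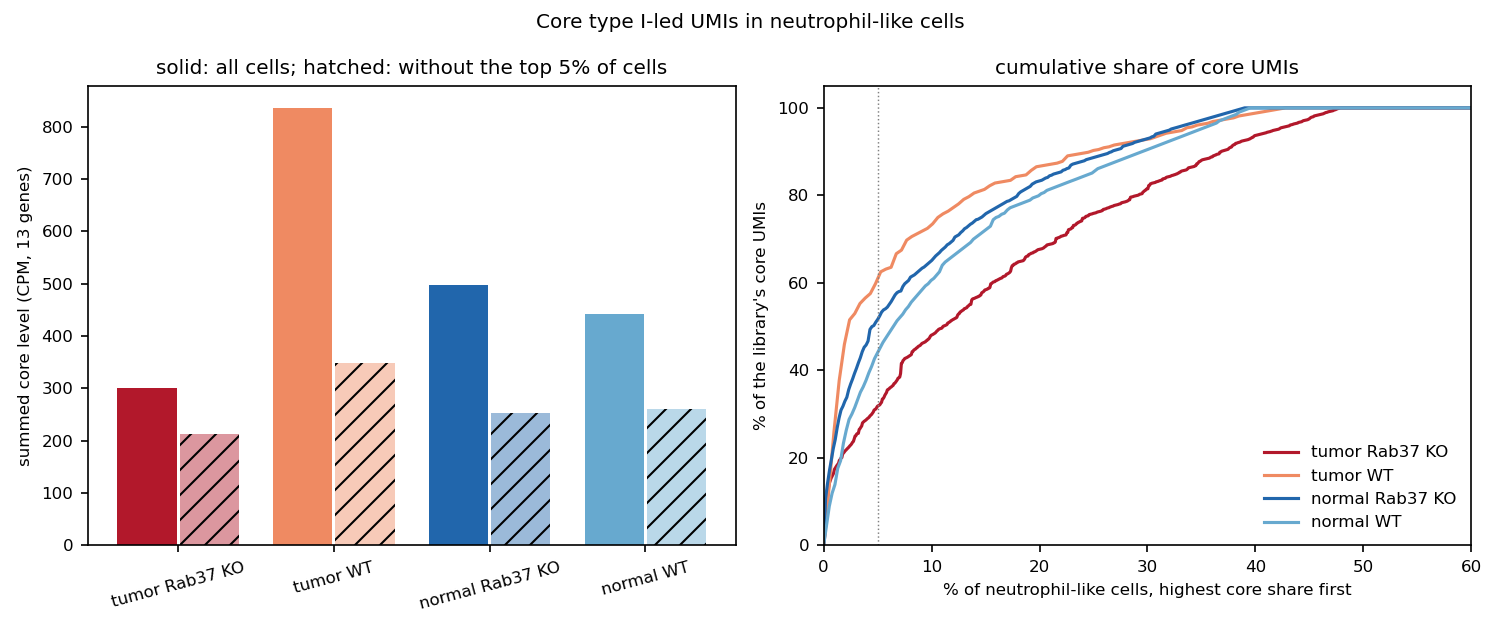
Left, summed level of the 13 core genes in neutrophil-like cells (CPM) for all cells (solid bars) and without the top 5% of cells (hatched bars); right, cumulative share of core UMIs against the share of cells, highest core share first. At the dotted line (5% of cells) the tumor WT curve is highest, with 59.8% of UMIs in 10 cells, and the tumor Rab37 KO curve lowest, with 31.8% in 65 cells.

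The neutrophil-like cells fell into clusters with different medians for the tumor difference, though the intervals of these medians overlapped. In cluster 1, led by Cxcl3, Ccl3 and Ccl4 (601 tumor Rab37 KO and 84 tumor WT cells), 17 of 21 type I-led members were lower and the median was -1.59, against 12.2% of all genes higher and 36.4% lower. Isg15 stood there at 34.6 CPM in tumor Rab37 KO and 563 CPM in tumor WT, and 8 of the 10 richest tumor WT cells belonged to it. In cluster 4, led by Ifitm1, Lrg1 and Steap4 (518 and 99 cells), 2 members were higher and 11 lower of 20, beside 16.1% and 22.3% of all genes, with a median of -0.71 and Isg15 at 38.9 CPM in tumor Rab37 KO and 145 CPM in tumor WT. In cluster 3, led by the granule genes Camp, Ngp and Ltf (180 and 21 cells), 5 were higher and 2 lower of 18, beside 23.2% and 13.3%. The median was 0.00, with an interval from -1.19 to 3.52, and 4 of the 18 members had 0 UMIs in 1 library. The intervals were -2.51 to -0.57 in cluster 1 and -1.67 to 0.48 in cluster 4.

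Genes around the members were counted from lists of other pathway parts. In tumor neutrophil-like cells, 3 of 49 other type I-led genes were higher and 23 lower in Rab37 KO, and their log2 ratios had a median of -0.42, beside the 13.7% and 22.2% of all genes given above. The counts of the next lists lay nearer to those shares. Of 10 other gamma-led genes 1 was higher and 3 lower, with a median of 0.02, and Cxcl10, a chemokine that draws CXCR3-bearing lymphocytes, had 13.7 CPM in tumor Rab37 KO and 48.5 CPM in tumor WT. Of 6 receptor genes, 0 were higher and 2 lower. Ifnar1, a subunit of the type I receptor, had 23.1 CPM in tumor Rab37 KO and 48.5 CPM in tumor WT, and Ifngr2, a subunit of the gamma receptor, had 34.9 and 69.2 CPM.

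In normal lung the neutrophil-like cells of the genotypes were closer. Rab37 KO had 5 higher and 5 lower of 22 type I-led members, beside 15.8% of all genes higher and 11.0% lower, and the median was -0.06 on the log2 scale. Ifit1 was higher in normal Rab37 KO, with a ratio of 2.10 (1.14 to 4.10), and so was Ifit3, with 1.76 (1.00 to 3.25), both from fewer than 15 cells per library, and in Y-linked-only cells, those with Y-linked UMIs and no Xist, the Ifit3 log2 ratio was -0.06. Gbp2 had 32.2 CPM in normal Rab37 KO and 14.3 CPM in normal WT, a ratio of 2.26. Ifi27l2a had 393 CPM in normal Rab37 KO and 575 CPM in normal WT, though in Y-linked-only cells its log2 ratio was 0.12.

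Set against normal lung, tumor WT neutrophil-like cells had 12 type I-led members higher and 4 lower of 21, with a median of 1.21, where 40.0% of all genes were higher and 14.5% lower. Ifit1 stood at 76.2 CPM in tumor WT and 15.4 CPM in normal WT, and Trim30a at 225 CPM in tumor WT and 83.5 CPM in normal WT. All 6 gamma-led members measured were higher, among them Irf1 at 142 CPM in tumor WT and 46.1 CPM in normal WT. Ifi27l2a, Oas3 and Rtp4, a chaperone of membrane receptors, went the other way. Oas3 had 41.5 CPM in tumor WT and 72.5 CPM in normal WT, and Rtp4 had 62.3 CPM in tumor WT and 108 CPM in normal WT. With classes taken from each cell's own markers the type I-led median was 0.16.

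Rab37 KO tumors compared otherwise with their own normal lung. There 6 type I-led members were higher and 10 lower of 22, with a median of -0.32, while 37.7% of all genes were higher and 12.2% lower. Isg15 had 30.6 CPM in tumor Rab37 KO and 131 CPM in normal Rab37 KO, a ratio of 0.234 (0.193 to 0.284). Ifi27l2a had 120.2 CPM in tumor Rab37 KO and 393 CPM in normal Rab37 KO, though with clusters weighted alike its log2 ratio was 0.51. Of 8 gamma-led members 4 were higher and 1 lower, to be read beside those shares of all genes, and Irf1 had 93.1 CPM in tumor Rab37 KO and 42.4 CPM in normal Rab37 KO. The tumor and normal neutrophil-like cells belonged almost wholly to different clusters, since cluster 24 held 546 of 559 normal Rab37 KO and 370 of 382 normal WT cells.

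Across the immune classes, Ifi27l2a was the member that was lower in tumor Rab37 KO than in tumor WT in the most classes. Its Rab37 KO over WT ratio was below 1, with an interval below 1, in 8 of 8 classes with a value, and past 1.5-fold in 7, with ratios between 0.0118 and 0.768. T-like cells had 364 CPM in tumor Rab37 KO and 1235 CPM in tumor WT, a ratio of 0.295 (0.249 to 0.348), and 359 CPM in normal Rab37 KO and 424 CPM in normal WT. Tumor WT thus stood apart from the other 3 libraries, whose values were close. By own markers both differences were smaller. The log2 ratio was then -1.06 for Rab37 KO over WT in tumor and 0.77 for tumor over normal in WT. Of the 60 tumor WT T-like cells, 36 took the T label from their own markers. B-like cells had 184 CPM in tumor Rab37 KO and 532 CPM in tumor WT, with 296 CPM in normal Rab37 KO and 379 CPM in normal WT. Alveolar macrophage-like cells had 25.1 CPM in tumor Rab37 KO and 141 CPM in tumor WT, with 29.2 CPM in normal Rab37 KO and 34.9 CPM in normal WT. In normal lung the ratio was below 1 in 4 of 7 classes. The lowest value, in NK-like cells, rested on 30 UMIs from 2 of 26 tumor WT cells.

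Isg15 and Bst2 showed a like arrangement in tumors. The Isg15 ratio of Rab37 KO over WT was at most 0.50 in the 6 classes with a value. In T-like cells it had 18.7 CPM in tumor Rab37 KO and 40.5 CPM in tumor WT, with 5.37 CPM in normal Rab37 KO and 5.33 CPM in normal WT, and the interval of the tumor ratio held 1. Bst2 was below 1 in 7 of 8 classes, and in monocyte/macrophage-like cells it had 197 CPM in tumor Rab37 KO and 345 CPM in tumor WT, with 119.7 CPM in normal Rab37 KO and 123 CPM in normal WT. Xaf1, a protein linked to cell death, was below 1 in 6 of 6 classes, though only 2 intervals left out 1. Ifitm3 had no common direction, being below 1 in 2 of 7 classes and past 1.5-fold higher in 3. Of these 3, T-like cells turned round under 5 alternatives, for example to a log2 ratio of -1.74 at Leiden resolution 0.5, and monocyte/macrophage-like cells under the 2 given with that class.

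**Figure D4:**
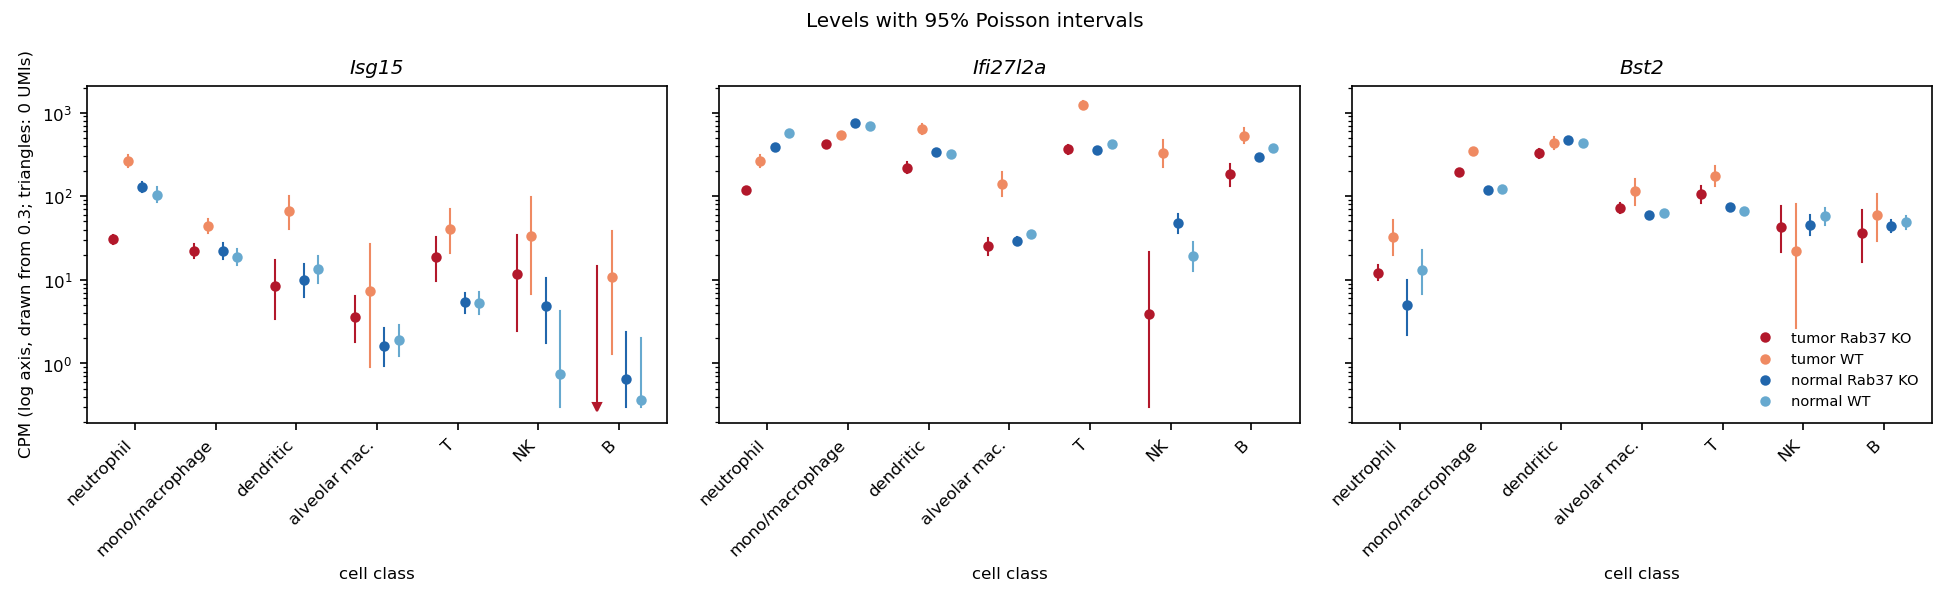
Levels of Isg15, Ifi27l2a and Bst2 (CPM, log axis) in 7 classes and 4 libraries, with 95% Poisson intervals cut at the foot of the axis; triangles mark 0 UMIs. For Ifi27l2a, tumor WT lies above tumor Rab37 KO in all 7 classes, with 1235 against 364 CPM in T cells.

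Dendritic cell-like cells of the tumors differed in the same direction as neutrophil-like cells. Of 13 type I-led members measured 1 was higher and 9 lower in Rab37 KO, beside 17.7% and 24.7% of all genes, with a median of -0.94. All 6 gamma-led members measured were lower, with a median of -1.60. The cells were few, 58 in Rab37 KO and 29 in WT, nearly all in cluster 14, which was led by Ccl17, Ccl22 and Il12b. Isg15 had 8.37 CPM in tumor Rab37 KO and 66.0 CPM in tumor WT, with 10.0 CPM in normal Rab37 KO and 13.6 CPM in normal WT, and 12 of the 21 tumor WT UMIs lay in 1 cell. Without the richest cell of each library it had 6.10 CPM in tumor Rab37 KO and 31.2 CPM in tumor WT.

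Other members of that class rested on more cells. Ifi27l2a had 219.9 CPM in tumor Rab37 KO and 641 CPM in tumor WT, a ratio of 0.343 (0.279 to 0.421), from 35 of 58 and 16 of 29 cells. Irf7 had 32.3 CPM in tumor Rab37 KO and 81.7 CPM in tumor WT, a ratio of 0.395 (0.222 to 0.704). Mx1 had 0 UMIs in tumor Rab37 KO and 10 UMIs over 7 cells in tumor WT, a ratio of at most 0.114 against a floor of 3 UMIs per library. Gbp2 had 9.56 CPM in tumor Rab37 KO and 62.9 CPM in tumor WT, with 17.2 CPM in normal Rab37 KO and 20.7 CPM in normal WT. Gbp5, a GTPase linked to inflammasome assembly, had 0 UMIs in tumor Rab37 KO and 11 UMIs over 4 cells in tumor WT. Ifitm3 was the member higher in Rab37 KO, with 3049 CPM in tumor Rab37 KO and 1945 CPM in tumor WT. The 10 neutrophil marker genes summed to 3505 CPM in tumor Rab37 KO and 10700 CPM in tumor WT dendritic cell-like cells, and their part in the result was not tested.

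In dendritic cell-like cells the tumor WT library was also the one that stood apart from normal lung. Tumor WT had 13 type I-led members higher and 0 lower of 21 against normal WT, beside 31.1% and 16.2% of all genes, with a median of 0.96. Tumor Rab37 KO had 4 higher and 7 lower of 20 against normal Rab37 KO, beside 18.4% and 25.3%, with a median of -0.48. In normal lung, Rab37 KO had 2 higher and 4 lower of 22 against WT, beside 12.6% and 7.59%. Cluster 14 alone gave 0 higher and 10 lower of 20 there, beside 12.3% and 8.76%, with a median of -0.57. For tumor Rab37 KO against normal Rab37 KO, cluster 14 gave 6 higher and 4 lower of 18, beside 20.5% and 24.7%. The median was then -0.04. For tumor WT against normal WT it gave 14 higher and 0 lower of 20, beside 31.7% and 16.8%, with a median of 0.99.

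**Figure D5:**
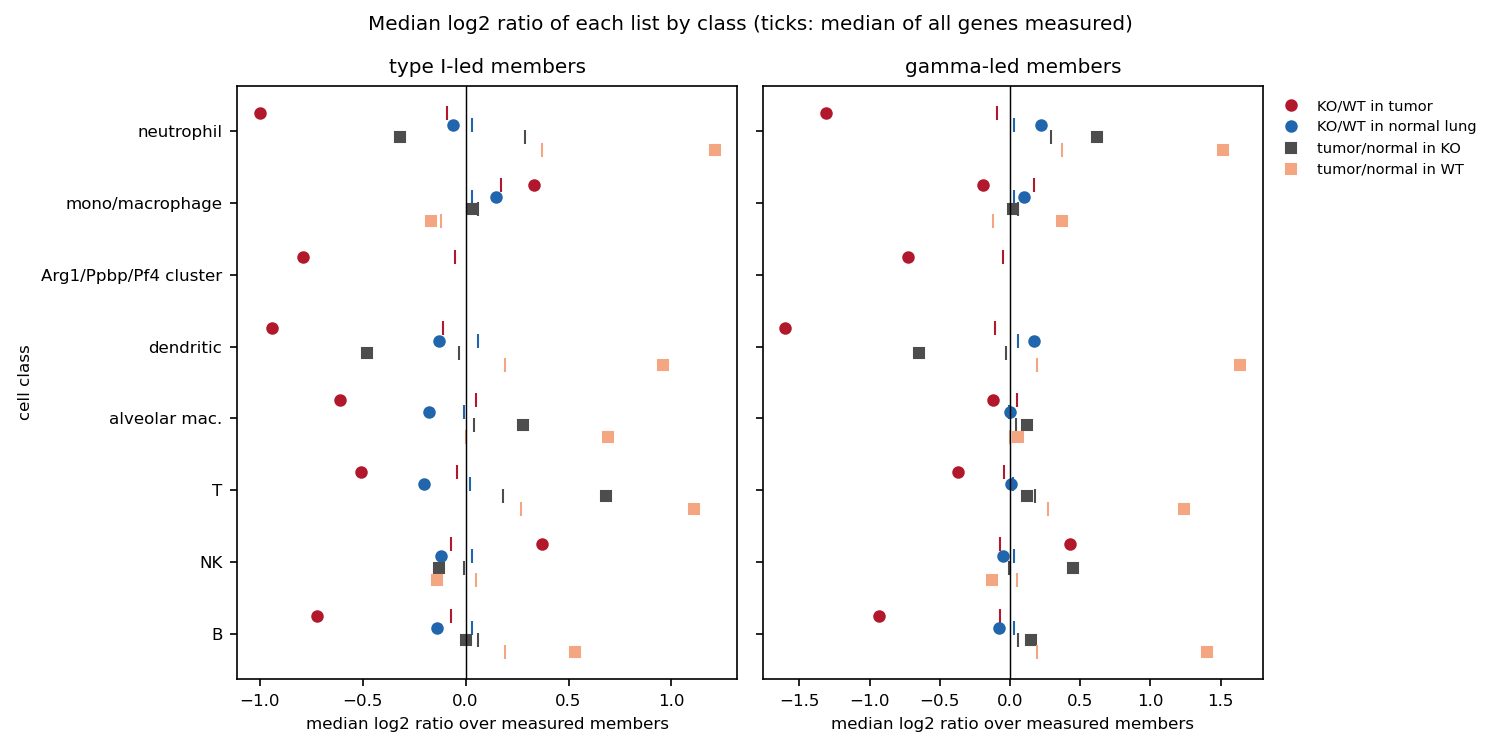
Median log2 ratio of the measured type I-led (left) and gamma-led (right) members in each class, with circles for Rab37 KO over WT and squares for tumor over normal; ticks mark the median of all genes measured. Type I-led medians for Rab37 KO over WT in tumor are -1.0 in neutrophil-like, -0.94 in dendritic cell-like and 0.33 in monocyte/macrophage-like cells.

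Monocyte/macrophage-like cells did not share one direction. In tumors 9 type I-led members were higher and 4 lower of 23 in Rab37 KO, beside 25.5% and 11.2% of all genes, with a median of 0.33, and 0 gamma-led members were higher and 1 lower of 9. Rsad2 had 51.7 CPM in tumor Rab37 KO and 13.1 CPM in tumor WT, a ratio of 3.95, and 91 of its 240 Rab37 KO UMIs lay in 1 cell. Ifit1 had 23.5 CPM in tumor Rab37 KO and 11.0 CPM in tumor WT, with 61 of 109 Rab37 KO UMIs in 1 cell. Without that cell the Ifit1 ratio turned round, to a log2 ratio of -0.10. It did so too with clusters weighted alike (-0.11) and with doublets kept (-0.83). With doublets kept, all cells were also clustered and named anew. Trim30a had 119.5 CPM in tumor Rab37 KO and 64.2 CPM in tumor WT, and Ifitm3 had 1439 CPM in tumor Rab37 KO and 852 CPM in tumor WT. The Ifitm3 direction turned round with clusters weighted alike (log2 ratio -0.27) and with doublets kept (-0.44). On the lower side, Isg15 had 22.2 CPM in tumor Rab37 KO and 44.3 CPM in tumor WT, a ratio of 0.50 (0.377 to 0.663).

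The class held different cells in the tumor libraries. Cluster 13, led by Gpnmb, Trem2 and Spp1, had 31 tumor Rab37 KO and 134 tumor WT cells, whereas cluster 12, led by Ccl12, C1qa and C1qc, had 102 tumor Rab37 KO cells and 10 tumor WT cells. With clusters weighted alike the type I-led median was -0.61, and with called doublets kept it was -0.83. Only 4 tumor Rab37 KO and 3 tumor WT doublets were called, and that setting also drew the clusters and classes anew. Within cluster 13, 6 type I-led members were higher and 9 lower of 22, beside 18.2% and 15.9% of all genes. The median there was -0.38. Within cluster 0, the classical monocyte-like cells (92 in Rab37 KO and 23 in WT), 2 were higher and 8 lower of 15, beside 24.3% and 17.1% of all genes, with a median of -0.66. Isg15 had 10.1 CPM there in tumor Rab37 KO and 96.5 CPM in tumor WT, a ratio of 0.104 (0.0360 to 0.272), and Ifi27l2a had 768 CPM in tumor Rab37 KO and 1770.0 CPM in tumor WT. At least 1% of UMIs came from neutrophil markers in 29.1% of tumor Rab37 KO and 11.9% of tumor WT cells of the class, and the part of such RNA was not tested.

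A cluster left unnamed, led by Arg1, Ppbp and Pf4, held 556 tumor Rab37 KO and 39 tumor WT cells. Its type I-led members were 3 higher and 14 lower of 23 in Rab37 KO, beside 15.4% and 24.8% of all genes, with a median of -0.79. Ifi27l2a had 299 CPM in tumor Rab37 KO and 876 CPM in tumor WT there, and Igtp had 9.40 CPM in tumor Rab37 KO and 27.3 CPM in tumor WT. Neutrophil markers summed to 27190 CPM in tumor Rab37 KO and 17560 CPM in tumor WT, with 7 of 10 higher, and at least 1% of UMIs came from them in 49.8% of tumor Rab37 KO and 25.6% of tumor WT cells. Their part was not tested.

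Against normal lung, tumor WT monocyte/macrophage-like cells had 5 type I-led members higher and 8 lower of 23, beside 21.1% and 28.9% of all genes. Bst2 had 345 CPM in tumor WT and 123 CPM in normal WT, a ratio of 2.80, whereas Ifitm3 had 852 CPM in tumor WT and 2387 CPM in normal WT. Irf1 was lower in both genotypes, with 60.7 CPM in tumor Rab37 KO, 48.1 CPM in tumor WT, 107 CPM in normal Rab37 KO and 103 CPM in normal WT. Tumor Rab37 KO had 4 higher and 3 lower of 23, beside 22.4% and 17.5%. In normal lung Rab37 KO had 3 higher and 1 lower of 23 against WT, beside 7.52% and 7.48%. The summed immediate early genes of dissociation stood at 10190 CPM in tumor Rab37 KO, 6604 CPM in tumor WT, 19660 CPM in normal Rab37 KO and 18670 CPM in normal WT cells of this class, and their part was not tested.

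T-like cells had higher type I-led members in tumor than in normal lung for both genotypes. Tumor WT had 16 type I-led members higher and 0 lower of 22 against normal WT, beside 35.5% and 10.2% of all genes, and tumor Rab37 KO had 14 higher and 2 lower of 22 against normal Rab37 KO, beside 25.9% and 11.6%. The medians were 1.11 in WT and 0.68 in Rab37 KO. The 10 neutrophil marker genes also differed in this class, summing to 1412 CPM in tumor Rab37 KO, 1451 CPM in tumor WT, 276 CPM in normal Rab37 KO and 56.3 CPM in normal WT. Cluster 11, led by Tnfrsf4 and Ctla4, made up 24.4% of the class in tumor Rab37 KO, 40.0% in tumor WT, 11.8% in normal Rab37 KO and 15.1% in normal WT, and cluster 26, led by Dapl1 and Cd8b1, 5.56%, 10.0%, 28.9% and 26.6%. Cluster 18 had Xcl1, Ccl5 and Ifng among its leading genes. In the same order of libraries it held 45 of 90, 15 of 60, 437 of 1541 and 454 of 1691 cells. The part of the neutrophil marker RNA or of these clusters in the result was not tested. Isg15 was 7.60-fold higher in WT (3.67 to 14.5) and 3.47-fold higher in Rab37 KO (1.69 to 6.60). Of 9 gamma-led members, 6 were higher and 1 lower in WT, with a median of 1.24, beside 0.27 for all genes. In Rab37 KO 3 were higher and 1 lower of 9, near the shares of all genes given above. The median there was 0.12, beside 0.18 for all genes. Gbp7 had 77.7 CPM in tumor Rab37 KO, 111 CPM in tumor WT, 35.1 CPM in normal Rab37 KO and 29.8 CPM in normal WT, so both tumor values lay above both normal ones. Gbp3 followed, with 34.2, 30.4, 12.3 and 10.3 CPM in that order. Igtp was lower in tumor Rab37 KO, at 31.1 CPM against 58.9 CPM in normal Rab37 KO. Iigp1 had 0 UMIs over 90 tumor Rab37 KO cells and 7 UMIs from 4 of 60 tumor WT cells.

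Between tumor genotypes, T-like cells had 1 type I-led member higher and 5 lower of 13 in Rab37 KO, beside 17.9% and 20.5% of all genes, with a median of -0.51. The member higher was Ifitm3, with 442 CPM in tumor Rab37 KO and 256 CPM in tumor WT from 15 of 90 and 7 of 60 cells, and its direction reversed under 5 alternatives. In normal lung T-like cells 0 members were higher and 1 lower of 23 in Rab37 KO, beside 5.92% and 6.84%, with a median of -0.20. Ifi27l2a was lower there by a smaller factor, with a ratio of 0.846 (0.808 to 0.887).

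The remaining lymphocytes and resident macrophages gave fewer members with a value. In tumor B-like cells 1 type I-led member was higher and 3 lower of 5 in Rab37 KO, beside 16.7% and 21.7%, and Gbp7 had 12 CPM in tumor Rab37 KO and 64.5 CPM in tumor WT. In alveolar macrophage-like cells 0 were higher and 6 lower of 11, beside 22.9% and 15.8%. NK-like cells had 3 higher and 3 lower of 7, beside 20.6% and 22.9%.

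In normal lung, Rab37 KO had 0 type I-led members higher and 3 lower of 14 in B-like cells, beside 8.72% and 6.56% of all genes. It had 3 higher and 3 lower of 13 in NK-like cells, beside 10.9% and 8.63%, and 4 higher and 3 lower of 15 in alveolar macrophage-like cells, beside 3.59% and 6.29%. Tumor WT against normal WT gave 4 higher and 1 lower of 12 in B-like cells, beside 30.8% and 12.6%, 4 and 1 of 10 in NK-like cells, beside 27.0% and 14.9%, and 6 and 0 of 12 in alveolar macrophage-like cells, beside 19.7% and 19.5%. Tumor Rab37 KO against normal Rab37 KO gave 4 higher and 1 lower of 11 in B-like cells, beside 23.3% and 15.3%, 1 and 3 of 9 in NK-like cells, beside 16.1% and 19.7%, and 5 and 2 of 15 in alveolar macrophage-like cells, beside 11.4% and 7.9%. All 8 gamma-led members measured in B-like cells were higher in tumor WT than in normal WT, though only 2 intervals left out 1. The tumor WT class had 55 cells.

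Of the ligands, Ifng, made chiefly by T and NK cells, had 274 CPM in tumor Rab37 KO, 255 CPM in tumor WT, 281 CPM in normal Rab37 KO and 459 CPM in normal WT NK-like cells. In T-like cells it had 185, 169, 76.8 and 88.3 CPM in the same order, so the tumor values lay above the normal ones. Cluster 18, with Ifng among its leading genes, made up a larger part of this class in tumor Rab37 KO than in the other libraries. The part of this cluster in the Ifng values was not tested. Ifnb1 was sparse, with 7, 0, 66 and 73 UMIs over all cells. Of these, 55 in normal Rab37 KO and 61 in normal WT came from monocyte/macrophage-like cells.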

How the data were processed

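Single-cell 3′ libraries of sorted CD45-positive cells were counted against mm10, per the submitters' processing notes. Each deposited matrix gives the unscaled UMI count of every gene in every barcode, written by matrix software 3.0.1 for the normal and 3.1.0 for the tumor libraries, per the file headers. Everything after these counts was computed here with Python 3.11.15, scanpy 1.11.5, numpy 2.4.6, scipy 1.17.1 and scikit-learn 1.9.0. A barcode was used if it had 200 or more genes and no more than 10% of its UMIs from mitochondrial genes, and 4, 3, 80 and 179 doublets called by Scrublet were removed from tumor Rab37 KO, tumor WT, normal Rab37 KO and normal WT. This left 13078 of 14396 barcodes and 30053499, 5183771, 33771330 and 34369993 UMIs, so the tumor WT library limits precision.

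Clusters (2000 variable genes without the 33 members, 30 principal components, Leiden resolution 1) were named from marker lists, and some stayed unnamed, so classes here may differ from the study's. UMIs were summed per class and library. Ratios have exact conditional binomial intervals, levels Poisson and shares Clopper-Pearson intervals, all at 95%. With 1 library per group no test was made. In each comparison the text names up to 5 members of each group each way with the largest ratios whose interval left out 1 and whose higher level was at least 20 CPM, and further members complete the account of all 33. The members and lists were chosen with earlier results of these data known. Computation was tested on simulated data. Of 19 alternatives, 2 (the Arg1, Ppbp and Pf4 cluster joined, and the top 5% of cells left out) were chosen after seeing the data.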

Additional observations from a re-analysis of the deposited data

Results flagged for a closer look

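Ifit1 and Ifit3 stood on opposite sides of 1 between genotypes in tumor and in normal lung, and the difference between the tissues was not tested. In neutrophil-like cells the Rab37 KO over WT ratio of Ifit1 was 0.207 in tumor and 2.10 in normal lung, and that of Ifit3 was 0.131 in tumor and 1.76 in normal lung. The contrast did not hold under every alternative: by own markers the Ifit1 log2 ratio in tumor was 0.23, on the side of normal lung, and in Y-linked-only cells the Ifit3 log2 ratio in normal lung was -0.06. In monocyte/macrophage-like cells the Ifit1 ratio was 2.14 in tumor and 0.407 in normal lung. There the log2 ratio in tumor was -0.10 without the largest cell, -0.11 with clusters weighted alike and -0.83 with doublets kept, and in normal lung it was 3.57 in Y-linked-only cells. Few cells carry these counts. In neutrophil-like cells Ifit1 had a UMI in 42 tumor Rab37 KO, 9 tumor WT, 12 normal Rab37 KO and 6 normal WT cells, and Ifit3 in 20, 9, 14 and 7.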

How the results depend on the processing

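Across 24 medians and 400 alternatives, 386 values stayed within the interval of the value reported and 14 moved beyond it. That interval ran from the median of the members' lower bounds to the median of their upper bounds. It is as wide as that of a single member, so staying within it is a loose check. For type I-led members of monocyte/macrophage-like cells, Rab37 KO over WT in tumor, it ran from -0.27 to 0.83. Signs changed too, mostly for medians near 0: for tumor over normal in Rab37 KO monocyte/macrophage-like cells, 6 of 18 type I-led and 5 of 18 gamma-led values kept the sign reported. Of 1667 alternatives for 101 named ratios 1421 stayed, 210 moved and 36 reversed; the cause was not tested. All values here are log2. With classes from each cell's own markers, the type I-led neutrophil median was -0.20 for Rab37 KO over WT in tumor and 0.16 for tumor over normal in WT, while Ifit1 and Ifit3b in the tumor contrast became 0.23 and 0.42. Without the top 5% of cells, that tumor median was -0.27, the gamma-led neutrophil median for tumor over normal in Rab37 KO was 1.80, and Ifit1 in monocyte/macrophage-like cells, same contrast, was -0.16. Without the largest cell, Ifit1 in monocyte/macrophage-like cells, Rab37 KO over WT in tumor, was -0.10.

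In monocyte/macrophage-like cells, Rab37 KO over WT in tumor, clusters weighted alike gave a type I-led median of -0.61, Ifit1 -0.11, Ifitm3 -0.27 and Irf1 -0.62. Doublets kept, with all cells clustered and named anew, gave a type I-led median of -0.83 and a gamma-led median of -1.02. Ifit1 was then -0.83, Ifitm3 -0.44 and Irf1 -0.48. Thinning gave Irf1 -0.23. For tumor over normal in WT, doublets kept gave a type I-led median of 0.74, Ifit1 1.70 and Irf7 0.43. For tumor over normal in Rab37 KO the gamma-led median was -0.52 at resolution 0.5, -0.62 thinned, -0.54 with members kept among the variable genes and -0.50 with the Arg1, Ppbp and Pf4 cluster joined. There Bst2 was -0.07 at resolution 0.5, -0.19 with members kept and -0.09 with the cluster joined, thinning gave Oas3 0.40 and Rtp4 0.34, and leaving out cells of at least 1% neutrophil RNA gave Trim30a -0.05.

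In T-like cells, Ifitm3 for Rab37 KO over WT in tumor was -1.74 at resolution 0.5, -0.44 at resolution 2, -0.22 thinned, -2.83 with clusters weighted alike and -1.7 with doublets kept. Rtp4 for tumor over normal in WT was -0.07 thinned, and Xaf1 for tumor over normal in Rab37 KO was -0.21 with members kept. With Y-linked-only cells, Rab37 KO over WT in normal lung gave a type I-led median of 0.73, Ifih1 0.43, Ifit1 3.57 and Ifitm3 0.11 in monocyte/macrophage-like cells, and Ifi27l2a 0.12, Ifit3 -0.06, Ifitm3 0.32 and Trim30a -0.61 in neutrophil-like cells. With those cells the gamma-led neutrophil median for tumor over normal in Rab37 KO was 2.37. Xist-only cells gave Ifi27l2a -0.04 and the 5% mitochondrial limit gave Ifitm3 0.08 in normal monocyte/macrophage-like cells. Clusters weighted alike gave Ifi27l2a 0.51 in neutrophil-like cells for tumor over normal in Rab37 KO. For tumor over normal in WT, clusters weighted alike could not be fitted in neutrophil-like and monocyte/macrophage-like cells, which shared too few clusters. No paired analysis was possible because each group had 1 library. Depth limits the tumor WT alveolar macrophage-like, NK-like, dendritic cell-like, B-like and T-like values, since these classes had 25, 26, 29, 55 and 60 cells.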

Other observations

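A cluster with plasmacytoid dendritic cell markers, the cells known as strong producers of type I interferon, held 18 normal Rab37 KO cells, under the minimum of 20 used elsewhere, and 21 normal WT cells. Its core stood at 506 CPM (402 to 628) in normal Rab37 KO and 120.7 CPM (71.5 to 191) in normal WT. Usp18 had 17 UMIs from 5 cells in normal Rab37 KO, 12 of them in 1 cell, and 2 UMIs from 2 cells in normal WT. Endothelial-like cells, which passed the sort in small number (58 in normal Rab37 KO and 21 in normal WT), had a gamma-led sum of 437 CPM in normal Rab37 KO and 652 CPM in normal WT.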
